A study of Homo sapiens with 14 samples.

Results

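TMPO, DYNC1I2, SYNC, PAPOLA, CMIP, U2SURP, SMURF1, TTLL5, VPS13C and FAM184A were chosen by the measured signals of these same arrays: 1 or more of their Affymetrix HG-U133 Plus 2.0 probe sets passed the threshold for tamoxifen in cells depleted of the coactivator SRC-1, or for a difference between that change and the one in control cells. These 10 genes are covered by 41 probe sets out of 54613 measured, and 11 of the 41 met that rule. Each gene's probe sets are given separately, since most of them disagreed. SYNC has a single probe set, so the description of discordant probe sets does not hold for it. The probe sets of CMIP moved in the same direction where they responded, but by different amounts. A further probe set carried the symbol of CMIP together with that of another gene and was not used.

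RNA came from LY2 cells, an endocrine-resistant human breast cancer line derived from MCF-7, on 14 arrays in 4 groups that differ in siRNA and in treatment. The SRC1-siRNA tamoxifen group has 2 arrays, numbered 1 and 3, and the SRC1-siRNA untreated, control-siRNA tamoxifen and control-siRNA untreated groups have 4 arrays each, all labelled as biological replicates. Cells received 40 nM siRNA against SRC-1 or 40 nM scrambled siRNA, and 24 hours later 100 nM 4-hydroxytamoxifen or, for the untreated groups, 0.01% ethanol for 2 hours. All groups came from cells propagated in 10 nM 4-hydroxytamoxifen and then grown without it for 72 hours in phenol red free medium with charcoal-stripped serum, so the untreated cells had met the drug before. With a single cell line and a single siRNA per target named in the labels, the comparisons describe these cells and these reagents.

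A probe set is a group of short oligonucleotides that together read 1 stretch of a gene's transcripts, and a gene can have several that lie in different exons, introns or alternative 3′ ends. Its signal also depends on how well its probes hybridise, so signals of different probe sets are not compared here as transcript amounts. A name ending in _s_at or _x_at marks probes that can match more than 1 transcript or sequence. SRC-1, the product of NCOA1, is a coactivator of the estrogen receptor and other nuclear receptors, and 4-hydroxytamoxifen is an active tamoxifen metabolite that binds that receptor. The genes were brought together by their signals and not by a pathway. TMPO encodes the lamina-associated polypeptide 2 proteins, which bind lamins and chromatin at the nuclear envelope. PAPOLA is a poly(A) polymerase that adds the tail to messenger RNA, and U2SURP is a protein associated with the U2 snRNP of the splicing machinery. DYNC1I2 is an intermediate chain of the motor cytoplasmic dynein, SYNC is the intermediate filament protein syncoilin, known mainly from muscle, and TTLL5 adds glutamate chains to tubulin. TTLL5 has also been described as STAMP, a protein that binds SRC-1 and the related coactivator TIF2. SMURF1 is a ubiquitin ligase for SMAD proteins and RHOA, CMIP is c-Maf inducing protein, and VPS13C is a bridge-like lipid transfer protein.

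All 4 NCOA1 probe sets were lower after SRC1 siRNA over all arrays (highest limma adjusted p = 8.85e-05), and their mean lay between 7.27 and 8.01 on the log2 scale in the 6 SRC1-siRNA arrays, against 8.77 to 9.27 in the 8 control-siRNA arrays. Array medians ranged from 3.44 to 3.51. The 10 luminal epithelial markers had signals of 8.83 to 13.2, whereas 5 of the 7 listed immune cell markers were measured, at 1.44 to 3.49, the 5 endothelial markers lay between 1.64 and 3.15, and the 7 fibroblast markers had a median of 2.60, with COL1A1 alone above the median probe set. Differences between arrays of different replicate numbers were far smaller than residual spread would give: the F value of replicate number had a median of 0.0428 over probe sets, against a null median of 0.871. With replicate number as a term in the fit, the 824 probe sets called for tamoxifen in SRC1-siRNA cells became 0, and the 10432 called for SRC1 siRNA over all arrays became 5485. The steps behind these values were not given in the sources used here, so whether processing by number had a part in the calls was not tested.

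The windows around the annotated starts of CMIP are shown because both hold a motif that was searched. RefSeq (GRCh38.p14) gives 2 windows of 300 bases around a start. Capitals mark GGTCA or its reverse complement TGACC, the half-site of an estrogen response element, and TGACGTCA, a cyclic AMP response element.
CMIP chr16:81444558-81444857, plus strand: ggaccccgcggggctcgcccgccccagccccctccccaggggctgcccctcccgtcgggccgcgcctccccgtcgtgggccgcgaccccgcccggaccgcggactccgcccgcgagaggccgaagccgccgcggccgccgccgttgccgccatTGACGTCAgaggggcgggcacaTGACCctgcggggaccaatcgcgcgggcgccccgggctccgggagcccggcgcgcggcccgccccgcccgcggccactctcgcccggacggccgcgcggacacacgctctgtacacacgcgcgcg
CMIP chr16:81495104-81495403, plus strand: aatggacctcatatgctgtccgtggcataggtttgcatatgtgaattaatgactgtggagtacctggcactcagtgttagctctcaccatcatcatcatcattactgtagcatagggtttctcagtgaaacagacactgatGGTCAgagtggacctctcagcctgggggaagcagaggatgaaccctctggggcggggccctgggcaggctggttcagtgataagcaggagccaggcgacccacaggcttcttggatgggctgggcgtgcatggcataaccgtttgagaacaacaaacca
Over the 16 annotated windows of the 10 genes, searched on both strands, the half-site GGTCA was present in 5, and it was present in 37.4% of 35116 RefSeq promoter windows of the same length. The element TGACGTCA occurred in 1 of the 16 windows, the first of CMIP, and in 1.85% of all windows. The full estrogen response element GGTCANNNTGACC (0.057% of all windows) and the AP-1 element TGANTCA (7.71%) were found in none of the 16. These matches describe letters in a window and not binding. TMPO, DYNC1I2, PAPOLA, CMIP and FAM184A have more than 1 annotated window, and the other 5 genes have 1.

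The first comparison sets 2 hours of tamoxifen against vehicle in SRC1-siRNA cells. It chose most of the probe sets, so its changes for these genes are a description and carry no test. In RNA of whole cultures, a change in the number of cells that make a transcript and a change in its amount per cell cannot be told apart. Of all probe sets, 1.51% passed an adjusted p of 0.05 here (824, of which 494, or 0.905%, were higher and 330, or 0.604%, lower). When each array was centred on its median, the split was 413 higher and 496 lower. Of the 41 probe sets of these genes, 10 passed by the rule, 7 higher and 3 lower, in 9 genes, and the remaining 30 that were never chosen had changes between -0.34 and 0.51. The probe set of U2SURP just inside the threshold, 236696_at, had an adjusted p of 0.035, and the one just outside, 236431_at of the same gene, had 0.0558.

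TMPO was the one gene with chosen probe sets moving in opposite directions. Probe set 209754_s_at had log2 signals of 6.47 and 7.21 in SRC1-siRNA tamoxifen arrays, against 8.13, 8.01, 7.91 and 7.87 in SRC1-siRNA untreated arrays. In control-siRNA cells it had 7.70, 7.88, 7.73 and 7.94 with tamoxifen, against 7.28, 7.17, 7.32 and 7.20 untreated. The arrays thus crossed over: tamoxifen arrays were all below untreated ones under SRC1 siRNA and all above them under control siRNA. The changes were -1.14 ± 0.15 log2 units in SRC1-siRNA cells and 0.56 ± 0.12 in control-siRNA cells (change ± SE from the fit). Probe set 237863_at, with a low signal, had 4.38 and 4.41 in SRC1-siRNA tamoxifen arrays, against 3.96, 3.61, 3.52 and 3.75 in SRC1-siRNA untreated arrays, a change of 0.68 ± 0.13. The 3 brighter TMPO probe sets, 224944_at, 203432_at and 209753_s_at, had changes of -0.08, -0.12 and -0.05 in the same cells.

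**Figure D1:**
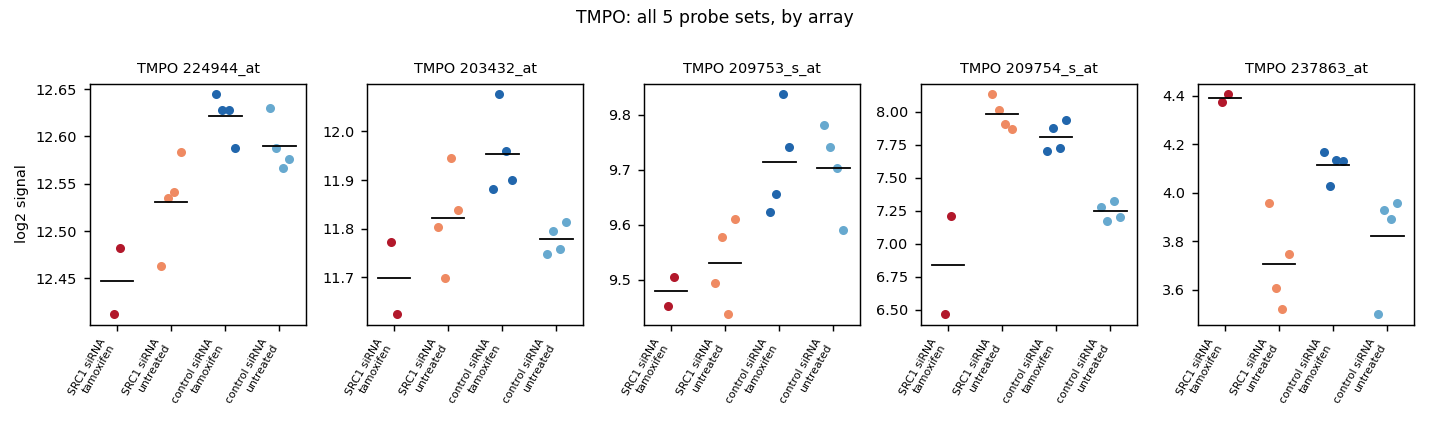
Log2 signal of the 5 TMPO probe sets (one panel each, own axis range) by array in the 4 groups, SRC1-siRNA tamoxifen (2 arrays), SRC1-siRNA untreated, control-siRNA tamoxifen and control-siRNA untreated (4 arrays each), with points for arrays and lines for group means. In 209754_s_at the SRC1-siRNA tamoxifen arrays (6.47 and 7.21) lie below or level with the control-siRNA untreated arrays, while in 237863_at they lie highest (4.38 and 4.41).

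The RNA processing genes PAPOLA and U2SURP each had 1 chosen probe set that was higher with tamoxifen after SRC1 siRNA. PAPOLA 215374_at had 6.02 and 5.31 in SRC1-siRNA tamoxifen arrays, against 4.17, 4.69, 4.38 and 4.59 in SRC1-siRNA untreated arrays, a change of 1.21 ± 0.17. Its control-siRNA arrays lay between those groups, at 5.09, 4.88, 5.09 and 5.09 with tamoxifen, against 5.19, 4.96, 5.28 and 5.03 untreated. SRC1-siRNA untreated arrays were therefore the lowest of the 4 groups and SRC1-siRNA tamoxifen arrays the highest. The other 5 PAPOLA probe sets had changes from -0.17 in 212720_at to -0.02 in 212718_at. U2SURP 236696_at had 7.24 and 7.57 in SRC1-siRNA tamoxifen arrays, against 6.52, 6.22, 6.48 and 5.70 in SRC1-siRNA untreated arrays, a change of 1.18 ± 0.25. In control-siRNA cells it ranged from 6.25 to 6.91 with tamoxifen, against 6.53 to 7.29 untreated, so these groups overlapped each other. A second U2SURP probe set lay closest to the chosen one: 236431_at had a change of 0.51 ± 0.12, and over the 14 arrays its correlation with 236696_at was r = 0.75. The 3 brighter U2SURP probe sets had changes of 0.08, 0.09 and 0.25.

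Among the cytoskeletal genes, DYNC1I2 and SYNC were lower and TTLL5 was higher. DYNC1I2 236698_at had 2.88 and 3.19 in SRC1-siRNA tamoxifen arrays, against 4.39, 3.90, 4.00 and 4.25 in SRC1-siRNA untreated arrays, a change of -1.10 ± 0.14. In control-siRNA cells it had 4.59, 4.81, 4.86 and 4.85 with tamoxifen, against 4.71, 4.81, 4.50 and 4.52 untreated. The SRC1-siRNA tamoxifen arrays were the lowest, SRC1-siRNA untreated arrays came next, and the control-siRNA groups overlapped above both. The changes of the other DYNC1I2 probe sets were -0.34 ± 0.24 for 242363_at and -0.08 ± 0.14 for 211684_s_at. SYNC 221276_s_at followed the same order in its group means, with 5.44 and 5.84 in SRC1-siRNA tamoxifen arrays, against 6.76, 6.54, 6.72 and 6.63 in SRC1-siRNA untreated arrays. Its change was -1.02 ± 0.18, and its control-siRNA arrays ranged from 6.88 to 7.41 with tamoxifen, against 6.69 to 7.26 untreated. TTLL5 215898_at had 4.97 and 4.92 in SRC1-siRNA tamoxifen arrays, against 4.08, 3.54, 3.89 and 3.63 in SRC1-siRNA untreated arrays, a change of 1.16 ± 0.19. Of the 4 groups, only SRC1-siRNA tamoxifen stood apart in TTLL5, since control-siRNA arrays with tamoxifen (3.77 to 4.44) overlapped the untreated ones (3.37 to 3.92). The 6 other TTLL5 probe sets had changes from -0.02 in 214672_at to 0.30 in 208099_x_at.

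SMURF1 232665_x_at, whose suffix marks probes that can match other sequences, had 9.09 and 9.07 in SRC1-siRNA tamoxifen arrays, against 8.35, 7.78, 7.87 and 7.68 in SRC1-siRNA untreated arrays. Its change was 1.16 ± 0.18, and the control-siRNA means lay between those of these groups, with arrays at 8.13 to 8.67 with tamoxifen, against 8.33 to 8.73 untreated. SRC1-siRNA untreated array 1, at 8.35, overlapped the control-siRNA arrays. The other SMURF1 probe sets had changes of 0.26 (212666_at), 0.14 (212668_at), 0.01 (215458_s_at) and -0.08 (1559426_at). VPS13C 235023_at had 7.78 and 7.73 in SRC1-siRNA tamoxifen arrays, against 6.75, 6.83, 6.53 and 6.34 in SRC1-siRNA untreated arrays, a change of 1.14 ± 0.18. The 3 groups other than SRC1-siRNA tamoxifen overlapped fully in VPS13C, with control-siRNA arrays at 6.37 to 6.76 with tamoxifen, against 6.16 to 6.82 untreated. The remaining VPS13C probe sets had changes of 0.04 (218396_at), -0.19 (232386_at) and 0.02 (220517_at). FAM184A 1558523_at had the largest change of the set, 1.29 ± 0.21, with 5.20 and 4.77 in SRC1-siRNA tamoxifen arrays, against 3.62, 3.71, 3.29 and 4.15 in SRC1-siRNA untreated arrays. The second FAM184A probe set, 220150_s_at, had a change of 0.10 ± 0.14.

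**Figure D2:**
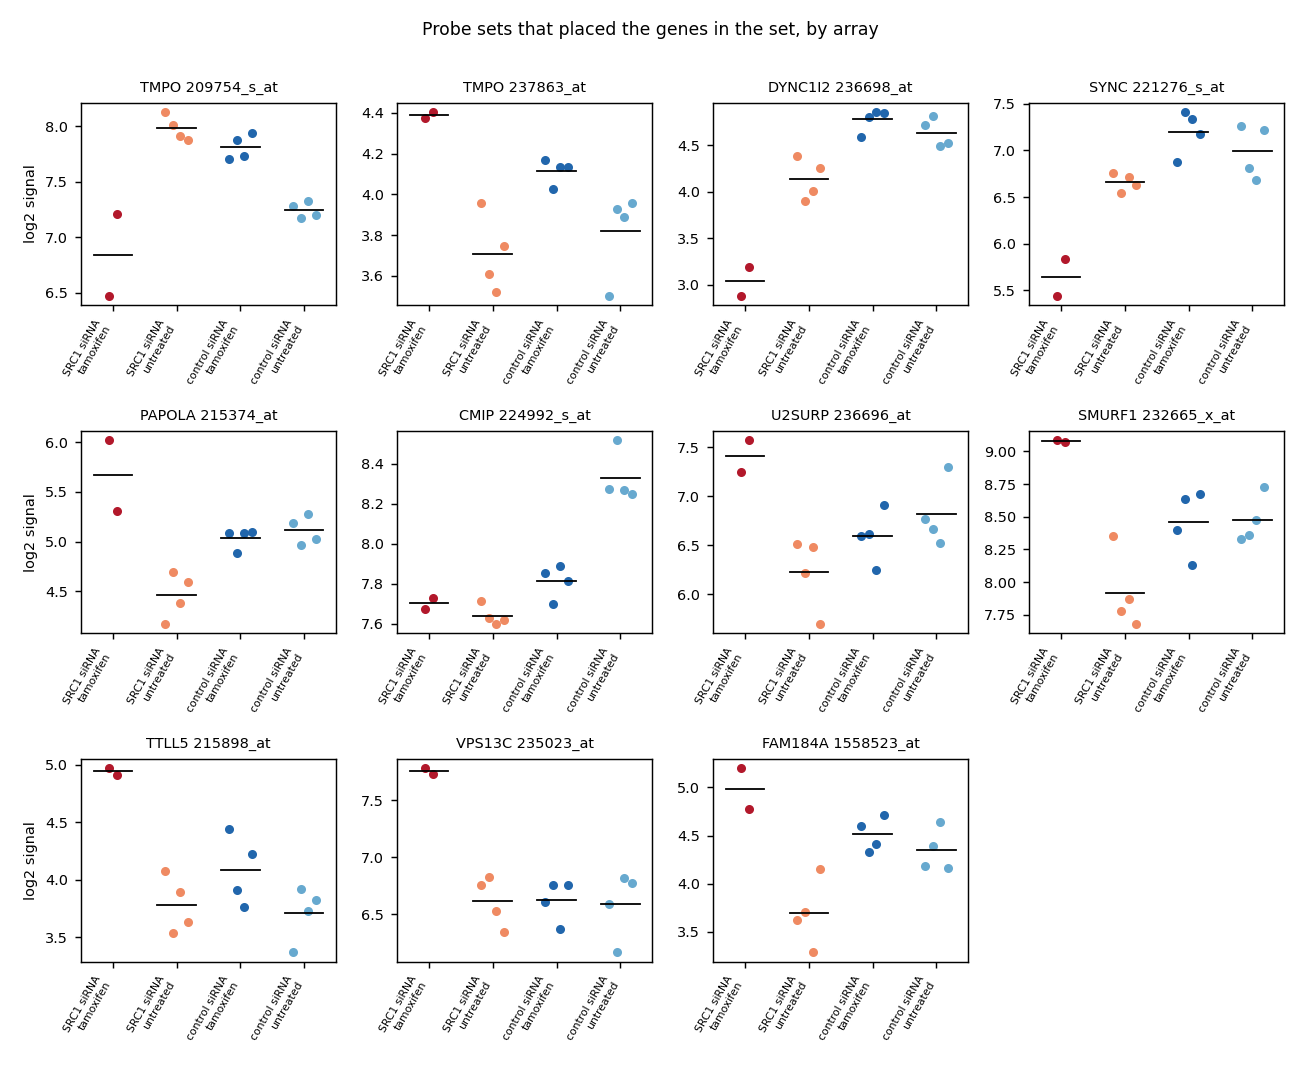
Log2 signal by array (points) and group mean (lines) of the 11 chosen probe sets in the 4 groups, each panel with its own axis range. The 2 SRC1-siRNA tamoxifen arrays lie above every other array in PAPOLA, SMURF1, TTLL5, VPS13C and FAM184A and in TMPO 237863_at, below every other array in DYNC1I2 and SYNC, and level with the SRC1-siRNA untreated arrays in CMIP.

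**Figure D3:**
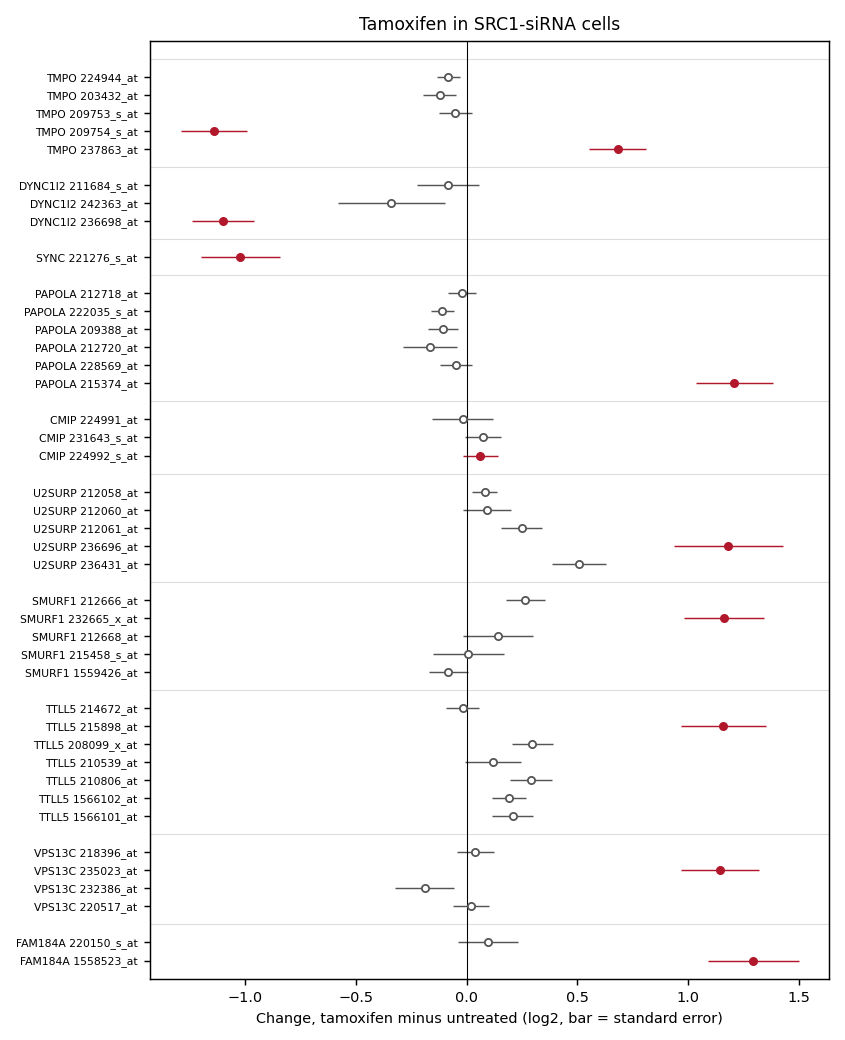
Change with tamoxifen in SRC1-siRNA cells (log2, tamoxifen minus untreated; bars are standard errors) of all 41 probe sets, ordered within each gene by mean signal from bright to dim, with chosen probe sets filled. Apart from CMIP, each gene has chosen probe sets at changes of 0.68 or more, or -1.02 or less, and the open points lie between -0.34 and 0.51.

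Complete separation of the tamoxifen arrays from the untreated ones in SRC1-siRNA cells was seen for 24.4% of all probe sets, since 1 group had 2 arrays. For the chosen probe sets other than CMIP, changes in linear terms ran from 1.60-fold (TMPO 237863_at, higher) to 2.45-fold (FAM184A 1558523_at, higher). The arrays numbered 1 and 3 allow a value per number. For TMPO 209754_s_at the difference between tamoxifen and untreated arrays was -1.66 for number 1 and -0.70 for number 3, and for PAPOLA 215374_at it was 1.85 and 0.93. VPS13C 235023_at had 1.03 and 1.20, and FAM184A 1558523_at had 1.58 and 1.49, so the arrays differed more from each other in TMPO and PAPOLA than in these. Without the SRC1-siRNA tamoxifen array 1, 3 probe sets passed in all and none of these 10, whereas without array 3, 656 passed and 8 of these 10.

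The range of the tamoxifen change over the probe sets of a gene, in SRC1-siRNA cells, was 1.82 log2 units in TMPO, 1.37 in PAPOLA, 1.33 in VPS13C, 1.25 in SMURF1, 1.20 in FAM184A, 1.18 in TTLL5, 1.10 in U2SURP, 1.02 in DYNC1I2 and 0.09 in CMIP. Over all 10523 genes with several probe sets the median range was 0.21 and the 95th percentile 0.64. These genes were chosen for such a change, and the comparison is given only to place them. A split within a gene was the usual state at this threshold: of the 376 genes with several probe sets and a call in this comparison, 357 (94.95%) had exactly 1 probe set called and 5 had all. Opposite calls within a gene, as in TMPO, occurred in 2 genes of 376. The brightest probe set of the gene was among those called in 78 (20.74%). For SRC1 siRNA over all arrays, by contrast, 2795 of 4505 genes with a call had exactly 1 called (62.04%), and the difference between these shares was not tested. The 11 chosen probe sets had mean signals from 3.95 to 8.40, none under the median probe set at 3.47, and the other 30 ranged from 2.04 to 12.8 with 6 under that median. Except in SYNC, each gene had a probe set brighter than its chosen ones.

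The interaction asks whether the tamoxifen change differed between SRC1-siRNA and control-siRNA cells. It also served to choose the genes and carries no test here. Of all probe sets 0.280% passed, and 5 of the 41 did: TMPO 209754_s_at (-1.71 ± 0.19), DYNC1I2 236698_at (-1.24 ± 0.18), SYNC 221276_s_at (-1.23 ± 0.23), PAPOLA 215374_at (1.29 ± 0.23) and CMIP 224992_s_at (0.57 ± 0.10), as the change in SRC1-siRNA cells minus that in control-siRNA cells. SYNC lay just inside the threshold with an adjusted p of 0.0439, and SMURF1 232665_x_at just outside with 0.057. Leaving out 1 array at a time, only the TMPO call was kept in all 14 fits, and DYNC1I2 did not pass in 5, SYNC in 11, PAPOLA in 12 and CMIP in 12. CMIP entered only through this comparison. CMIP 224992_s_at had 7.67 and 7.73 in SRC1-siRNA tamoxifen arrays, against 7.71, 7.63, 7.60 and 7.62 in SRC1-siRNA untreated arrays. In control-siRNA cells it had 7.85, 7.70, 7.89 and 7.81 with tamoxifen, against 8.27, 8.52, 8.27 and 8.25 untreated. The control-siRNA untreated arrays thus stood above all others, and the change was 0.06 ± 0.08 in SRC1-siRNA cells and -0.51 ± 0.07 in control-siRNA cells. CMIP 231643_s_at had changes of 0.07 ± 0.08 and -0.34 ± 0.07 in the same cells, and 224991_at had -0.02 ± 0.14 and -0.09 ± 0.11. Over the 14 arrays, 224992_s_at correlated with 231643_s_at at r = 0.96 and with 224991_at at r = 0.67.

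Tamoxifen in control-siRNA cells shares no array with tamoxifen in SRC1-siRNA cells. In these cells 0.163% of all probe sets passed (0.0916% lower), and 1 of the 41 did, CMIP 224992_s_at, which is a description since the interaction that chose CMIP uses the same arrays. At an unadjusted p under 0.05 there were 12, and 15.7% of all probe sets lay under that value. Tamoxifen and untreated arrays separated completely for 8.86% of all probe sets in control-siRNA cells. These probe sets included the chosen TMPO 209754_s_at, TMPO 237863_at and CMIP 224992_s_at. In TMPO 237863_at all tamoxifen arrays lay above the untreated ones, as they did in SRC1-siRNA cells. Probe sets that were not chosen also separated: TMPO 203432_at, PAPOLA 228569_at, U2SURP 212060_at and TTLL5 208099_x_at upward, PAPOLA 222035_s_at and CMIP 231643_s_at downward. For the probe sets chosen through SRC1-siRNA cells alone, limma found no change past an adjusted p of 0.05 in control-siRNA cells. These changes were 0.29 ± 0.10 for TMPO 237863_at (adjusted p = 0.202), -0.22 ± 0.20 for U2SURP 236696_at (0.627) and -0.01 ± 0.15 for SMURF1 232665_x_at (0.977). TTLL5 215898_at changed by 0.38 ± 0.16 (adjusted p = 0.27), VPS13C 235023_at by 0.04 ± 0.14 (0.931) and FAM184A 1558523_at by 0.17 ± 0.17 (0.667). All 6 were higher with tamoxifen in SRC1-siRNA cells, where the smallest change was 0.68. An effect past the threshold in one siRNA group and not in the other does not show a difference, and none of these 6 passed for the interaction. For DYNC1I2, SYNC and PAPOLA, chosen through both comparisons, the control-siRNA changes were 0.14 ± 0.11, 0.21 ± 0.14 and -0.08 ± 0.14. Set against the mean of the other TMPO probe sets, the change of 209754_s_at in control-siRNA cells was 0.44 higher, again as a description, and 0.634% of 31839 probe sets passed that comparison (limma diffSplice).

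**Figure D4:**
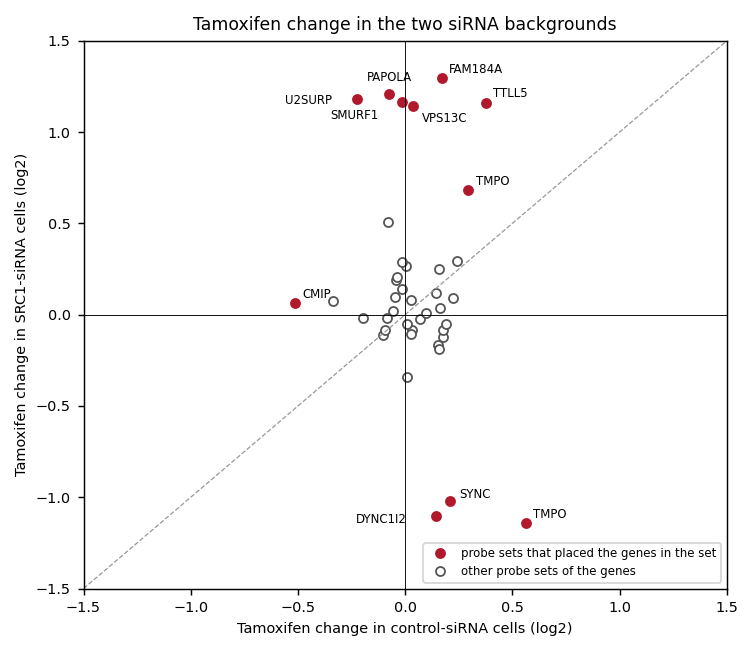
Change with tamoxifen in SRC1-siRNA cells (vertical) against that in control-siRNA cells (horizontal), both in log2 units, for the 41 probe sets, with chosen ones filled and named and the dashed line marking equal change. Chosen probe sets spread along the vertical axis from -1.14 to 1.29 and along the horizontal one from -0.51 to 0.56, with the TMPO probe sets to the right, at 0.68 and -1.14, and CMIP to the left.

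SRC1 siRNA was then compared with control siRNA over all arrays, as the mean of the 6 SRC1-siRNA arrays minus the mean of the 8 control-siRNA arrays. For independent arrays of equal variance this difference has a covariance of 0 with the tamoxifen changes and the interaction. Under that condition, array errors that led to a gene being chosen do not carry over, apart from the shared estimate of spread. Independence was not met here, since same-numbered arrays deviated in opposite directions (18 correlations from -0.585 to -0.0421). Whether such errors carried over into this comparison was not tested. For the 11 chosen probe sets its values, and their differences from the gene's other probe sets, are therefore a description, also where an adjusted p is given. The SRC1-siRNA mean does hold 2 tamoxifen arrays of 6, so a true tamoxifen change enters it, and values without tamoxifen are given for the passing probe sets. Of the 41 probe sets 18 passed (43.9%), 6 higher and 12 lower, against 19.1% of all probe sets (8.42% higher and 10.7% lower), and 25 had an unadjusted p under 0.05, against 31.9% of all probe sets. These shares are not matched in signal: only 6 of the 41 lay under the median probe set. With all probe sets under that median left out, 8954 still passed, against 10432 with them, so calls were rarer among dim probe sets. The median change was -0.10 over the 41 and -0.01 over all probe sets. Each of the genes except FAM184A had at least 1 passing probe set, and so had 42.8% of all genes with several probe sets. That share is not matched in the number of probe sets, since SYNC has 1 and the other genes have up to 7. In SYNC and VPS13C the only passing probe set was the one the rule chose. Leaving out any single array kept 13 of the 18 calls. With replicate number as a term 9 remained: DYNC1I2 in all 3 probe sets, SYNC, CMIP 231643_s_at and 224992_s_at, SMURF1 212666_at and 215458_s_at, and U2SURP 212061_at. The calls lost with that term were TMPO 224944_at and 209753_s_at, PAPOLA 209388_at and 212720_at, CMIP 224991_at, SMURF1 212668_at, TTLL5 214672_at and 210806_at, and VPS13C 235023_at, with adjusted p from 0.0539 to 0.191.

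DYNC1I2, the dynein intermediate chain, fell in all 3 of its probe sets. DYNC1I2 242363_at had 7.12, 6.61, 7.48, 6.82, 6.88 and 7.64 in the SRC1-siRNA arrays, tamoxifen arrays first, and its control-siRNA arrays ranged from 8.08 to 8.64 with tamoxifen and from 8.10 to 8.58 untreated. All SRC1-siRNA arrays lay below all control-siRNA arrays in each of the 3 DYNC1I2 probe sets, a separation seen for 5.49% of all probe sets. The changes were -1.21 ± 0.15 for 242363_at (adjusted p = 1.5e-04), -0.94 ± 0.09 for 236698_at (2.91e-05) and -0.64 ± 0.09 for 211684_s_at (2.63e-04). Without tamoxifen the values were -1.09 ± 0.20, -0.50 ± 0.11 and -0.53 ± 0.11, so 236698_at was nearly level with 211684_s_at there. In diffSplice the probe sets of a gene are taken as independent, with 1 shared spread. Residual SD was 0.25 for TTLL5 215898_at, 0.24 for SMURF1 232665_x_at and 0.23 for VPS13C 235023_at, above every other probe set of these genes. The shared spread is smaller than their own, which makes their differences look surer. Of 31839 probe sets, 12.6% passed for SRC1 siRNA over all arrays. There, 211684_s_at changed by 0.43 less steeply than the other DYNC1I2 probe sets (diffSplice adjusted p = 0.0483). That call did not pass in 11 of the 14 fits without 1 array. SYNC 221276_s_at was lower too, by 0.77 on the log2 scale over all arrays (SE 0.11). That value is a description, since it holds the SRC1-siRNA tamoxifen arrays that served to choose SYNC. It was made of -0.33 ± 0.14 in untreated and -1.56 ± 0.18 in tamoxifen-treated cells.

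CMIP fell in all 3 probe sets, by 0.34 (224991_at, adjusted p = 0.0126), 0.43 (231643_s_at, 1.08e-04) and 0.41 (224992_s_at, 1.23e-04) on the log2 scale. In untreated cells the 3 values were -0.38 ± 0.11, -0.62 ± 0.07 and -0.69 ± 0.07, and in tamoxifen-treated cells -0.31 ± 0.14, -0.21 ± 0.08 and -0.11 ± 0.08. Of the 7 listed MAF transcription factors, after which CMIP is named, 4 were measured. Higher signals were found in 3 of these 4 (MAFF by 1.01, MAF by 0.92 and MAFG by 0.43), against 10.1% of all genes. A link to the fall of CMIP was not tested. MAF had a mean signal of 3.43, under the median probe set.

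SMURF1 rose in 3 of its 5 probe sets: 212666_at by 0.38 ± 0.06 (adjusted p = 3.98e-04), 212668_at by 0.38 ± 0.10 (0.0172) and 215458_s_at by 0.42 ± 0.10 (0.0094). SMURF1 212666_at had 11.20 and 11.25 in SRC1-siRNA tamoxifen arrays and 10.91, 11.12, 11.05 and 10.77 in SRC1-siRNA untreated arrays, against 10.59 to 10.72 and 10.59 to 10.77 in the control-siRNA arrays with and without tamoxifen. The lowest SRC1-siRNA array overlapped the control-siRNA arrays, and the other 5 lay above them. The probe set chosen for tamoxifen, 232665_x_at, had a change of -0.16 ± 0.11 (adjusted p = 0.36). Its change was 0.44 lower than the mean of the other SMURF1 probe sets (diffSplice adjusted p = 0.00244). That call did not pass in 3 of the 19 other fits run, among them the one without the SRC1-siRNA untreated array 2 (adjusted p = 0.0619). Over these fits the difference ranged from -0.60 to -0.08. In untreated cells the value was -0.56 ± 0.15 for 232665_x_at, against 0.29, 0.32 and 0.47 for the probe sets that rose. In tamoxifen-treated cells, however, 232665_x_at was higher as well, at 0.62 ± 0.18, against 0.56, 0.48 and 0.38. The value over all arrays thus averages 2 opposite values for this probe set. The change of 1559426_at, with a signal of 2.60 under the median probe set, was 0.30 lower than that of the others (diffSplice adjusted p = 0.0469), and it did not pass in 9 of the 14 fits without 1 array.

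TTLL5 rose slightly in 214672_at (0.19 ± 0.05, adjusted p = 0.0104) and 210806_at (0.21 ± 0.06, 0.0258). The mean signal of 210806_at, 3.39, lay under the median probe set, and its change was 0.14 without the SRC1-siRNA tamoxifen array 1. In untreated cells the TTLL5 values were 0.10 ± 0.06 for 214672_at and 0.10 ± 0.08 for 210806_at. With tamoxifen these were 0.28 ± 0.07 and 0.41 ± 0.10. Against its other probe sets, TTLL5 210539_at, at -0.22, lay 0.32 below their mean change (diffSplice adjusted p = 0.00342), and 215898_at, at 0.27, lay 0.26 above it (0.0254). TTLL5 215898_at had 0.08 ± 0.16 in untreated and 0.86 ± 0.19 in tamoxifen-treated cells, and the difference did not pass in 4 of the 14 fits without 1 array, those without either SRC1-siRNA tamoxifen array among them. The chosen VPS13C 235023_at had 0.39 ± 0.11 over all arrays, 0.43 above the mean change of its other probe sets. Both values hold the 2 SRC1-siRNA tamoxifen arrays that served to choose it and are a description. The VPS13C value was 0.03 ± 0.14 in untreated and 1.13 ± 0.18 in tamoxifen-treated cells, so it came from the tamoxifen arrays. Over all arrays it was 0.23 without the SRC1-siRNA tamoxifen array 1 and 0.24 without array 3.

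The remaining calls were small falls in bright probe sets. TMPO fell by 0.10 in 224944_at (adjusted p = 0.0409) and by 0.20 in 209753_s_at (0.0105), while the chosen 209754_s_at had 0.07 ± 0.09 over all arrays, made of 0.74 ± 0.12 in untreated and -0.97 ± 0.15 in tamoxifen-treated cells. PAPOLA fell by 0.13 in 209388_at (adjusted p = 0.0422) and by 0.24 in 212720_at (0.0401), and U2SURP by 0.29 in 212061_at (0.00379). Without tamoxifen, TMPO 224944_at had -0.06 ± 0.04 and 209753_s_at -0.17 ± 0.06, against -0.17 ± 0.05 and -0.24 ± 0.08 with it. PAPOLA 209388_at had -0.09 ± 0.06 without tamoxifen and -0.22 ± 0.07 with it, and 212720_at had -0.11 ± 0.10 and -0.43 ± 0.12. U2SURP 212061_at had -0.29 ± 0.08 without tamoxifen and -0.20 ± 0.09 with it. Leaving out 1 array at a time, TMPO 224944_at did not pass in 11 of 14 fits, PAPOLA 209388_at in 11 and PAPOLA 212720_at in 8. FAM184A had -0.31 ± 0.13 in 1558523_at (adjusted p = 0.114) and -0.14 ± 0.08 in 220150_s_at (0.271). The values in untreated cells were -0.65 ± 0.17 for FAM184A 1558523_at, -0.66 ± 0.14 for PAPOLA 215374_at, -0.59 ± 0.20 for U2SURP 236696_at and -0.56 ± 0.15 for SMURF1 232665_x_at. In tamoxifen-treated cells the same probe sets had 0.47 ± 0.21, 0.63 ± 0.17, 0.82 ± 0.25 and 0.62 ± 0.18. All of these share arrays with the comparison that chose the genes and are not tested. They show the lowest group (SRC1-siRNA untreated) and the highest group (SRC1-siRNA tamoxifen) on either side of the control-siRNA groups in each of these 4 genes.

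**Figure D5:**
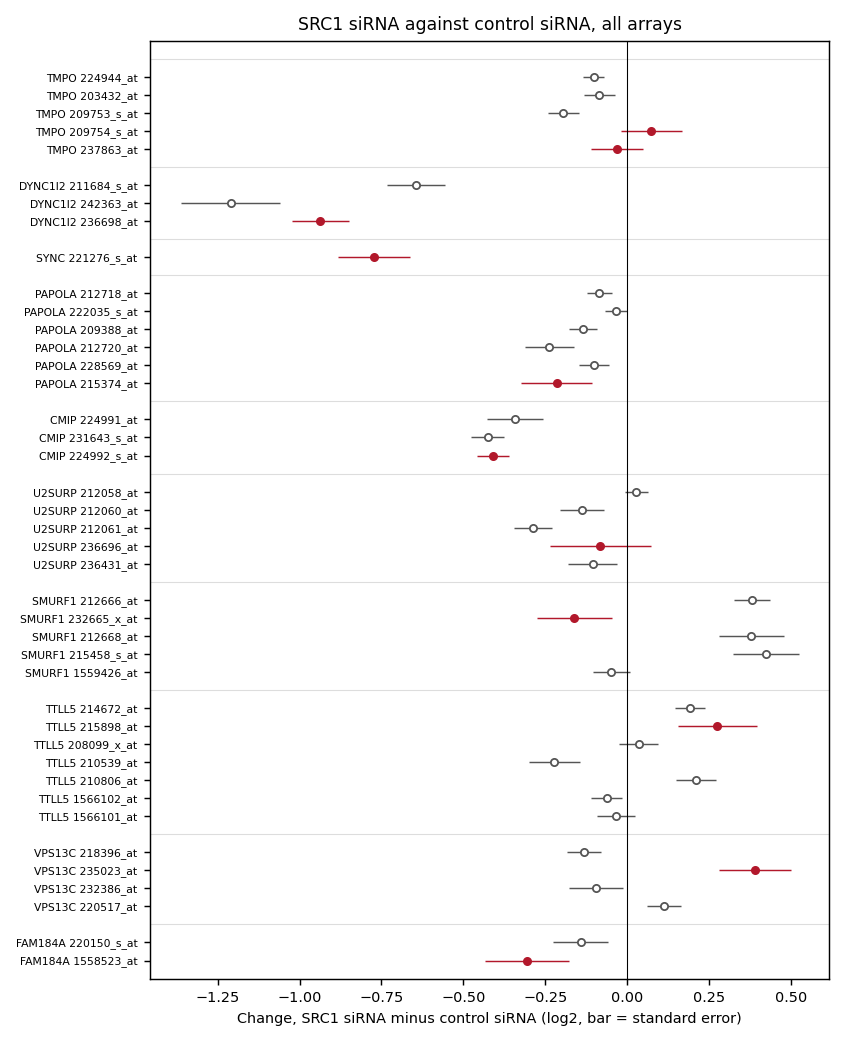
Change with SRC1 siRNA over all arrays (log2, mean of 6 SRC1-siRNA arrays minus mean of 8 control-siRNA arrays; bars are standard errors) of the 41 probe sets, ordered within each gene by mean signal, with the probe sets chosen for tamoxifen filled. All probe sets of DYNC1I2 and CMIP lie to the left of 0, and in SMURF1 3 probe sets at 0.38 to 0.42 lie to the right of the chosen one at -0.16.

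Genes of the same complexes and families were followed by their brightest probe set, from lists made by complex or family. Of 132 listed genes 127 were measured. With tamoxifen in SRC1-siRNA cells 1 of the 127 passed (0.787%, against 0.819% of 19775 genes in either direction), the SMURF1 relative HECW1, with a dim probe set (-0.30). In control-siRNA cells none passed by limma, against 0.248% of genes. With SRC1 siRNA over all arrays 16 rose and 16 fell (25.2%, against 22.6% of genes, of which 10.1% higher and 12.5% lower). Of the 12 lamina and LEM domain proteins listed for TMPO, 2 rose and 3 fell, with the lamin LMNA higher by 0.24 and LMNB1 at -0.18. Among 18 dynein and dynactin genes 1 rose and 2 fell: the light chain DYNLT1 was at 0.37, DYNLL1 at -0.15 and the light intermediate chain DYNC1LI1 at -0.13, all smaller than the changes of DYNC1I2. The 17 measured genes of mRNA 3′ end processing gave 2 higher and 1 lower, with the poly(A) polymerase PAPOLG at 0.21. For the U2 snRNP list, 18 genes gave 1 higher and 2 lower, with the helicase DHX15 at -0.21. In the list of NEDD4 family ligases and SMAD signalling 19 were measured, with 1 higher (SMAD3, 0.20) and 2 lower, the receptor TGFBR1 at -0.33 and the ligase NEDD4L at -0.26. Of 17 tubulin ligases and carboxypeptidases for TTLL5, 2 rose and 4 fell, among them the deglutamylase AGTPBP1 at -0.59. The lists for SYNC and VPS13C gave 3 higher and 1 lower of 11, with the luminal keratin KRT8 at 0.30 and the dystrobrevin DTNA at 0.26, and 1 of each of 10.

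Patterns over the 14 arrays were compared by Pearson correlation, as a description. All arrays share their siRNA and treatment groups, so such correlations mainly follow the group means. Between chosen probe sets, r was 0.94 for DYNC1I2 and SYNC, 0.90 for U2SURP and SMURF1, 0.89 for PAPOLA and FAM184A, and -0.84 for TMPO 209754_s_at and PAPOLA. Within genes, the chosen DYNC1I2 probe set had r of 0.77 and 0.84 with the other DYNC1I2 probe sets, whereas PAPOLA 215374_at had r between -0.49 and 0.04 with its 5 companions and VPS13C 235023_at between -0.30 and 0.33. FAM184A's pair had r = 0.61. Of the probe sets of other genes, the one most like the chosen probe set was in KHDRBS1 for TMPO (r = 0.92), LINC03011 and SSX2IP for DYNC1I2 (0.97 each), PCNP for SYNC (0.98), PABPC1L for PAPOLA (0.94) and INSL3 for CMIP (0.96). It was in UBE2Z for U2SURP (0.90), XPO7 for SMURF1 (0.91), DDX52 for TTLL5 (0.92), ANKHD1 for VPS13C (0.90) and SLC44A1 for FAM184A (0.90). ANKHD1 229457_at was also among the 3 most like TTLL5, SLC1A4 244377_at among those of both U2SURP and SMURF1, and PCM1 228905_at among those of both PAPOLA and FAM184A.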

How the data were processed

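Total RNA of LY2 cells was amplified, labelled with biotin and hybridised to 14 arrays, per the labels' protocols. The deposited values are log2 signals made by the authors, with 1 value per probe set and array. The log base was taken to be 2 from their range. Per the submitters' processing notes R 2.9.2 was used, and the background correction, normalization and summary were not given in the sources used here. Probe sets were named from GEO's platform annotation, and 62 array controls were left out of 54675.

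Group means were fitted to all 14 arrays with limma 3.58.1 (R 4.3.3) and eBayes, two-sided, with Benjamini-Hochberg adjustment over 54613 probe sets and a threshold of 0.05. limma's diffSplice set each probe set against the mean of its gene's others. The fits were checked on simulated data with independent arrays. Same-numbered arrays here were not independent, so that check does not cover this feature of the data. Changes are tamoxifen minus untreated, or SRC1 siRNA minus control siRNA, and errors are SE. The members and lists were chosen with earlier results of these data known. All probe sets with 1 symbol of the 10 genes are reported, and the chosen ones are those past 0.05 for tamoxifen in SRC1-siRNA cells or the interaction. Likeness is the highest Pearson r among probe sets of other single genes above the median signal. Alternatives covered scaling, dim probe sets, the arrays fitted, weights, replicate number and leaving out arrays. The number of arrays limits precision. No probe sequences were used here.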

Additional observations from a re-analysis of the deposited data

Results flagged for a closer look

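Of 123 groups of 4 arrays (41 probe sets in 3 groups), 9 held an array whose gap to its nearest neighbour over the range exceeded Dixon's critical value at 95%, and chance gives about 1 in 20 groups. Under control siRNA without tamoxifen, TMPO 237863_at was low in array 1 (3.502), PAPOLA 228569_at low in array 3 (9.6267), CMIP 224992_s_at high in array 2 (8.5178), SMURF1 1559426_at high in array 4 (2.7856) and TTLL5 1566102_at high in array 2 (2.7154). With tamoxifen under control siRNA, PAPOLA 215374_at was low in array 2 (4.8815), U2SURP 212060_at low in array 4 (10.655) and VPS13C 220517_at low in array 3 (2.1742). In SRC1-siRNA untreated cells, FAM184A 220150_s_at was high in array 4 (4.5571).

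The tamoxifen change in SRC1-siRNA cells minus that in control-siRNA cells passed the interaction for 5 probe sets, which were chosen partly on it. The log2 differences were -1.7053 for TMPO 209754_s_at, -1.2432 for DYNC1I2 236698_at, -1.2312 for SYNC 221276_s_at, 1.2854 for PAPOLA 215374_at and 0.57484 for CMIP 224992_s_at.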

How the results depend on the processing

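Counts of calls depended on the setting, and causes were not tested. No called probe set of the 10 genes changed sign, while median centring turned the split of calls for tamoxifen in SRC1-siRNA cells to 413 higher and 496 lower, from 494 higher and 330 lower. Same-numbered arrays deviated in opposite directions (18 correlations from -0.585 to -0.0421), and 77.8% of probe sets had an F of replicate number in the lowest 5% of its null. The number is thus tied to these values, though not as pairs that deviate together. With replicate number as a block, the calls were 0 for tamoxifen in SRC1-siRNA cells, 0 for the interaction, 1 for tamoxifen in control-siRNA cells, 5485 for SRC1 siRNA over all arrays, 16 for the related genes, and 1779 (siRNA) and 4 (tamoxifen in control-siRNA cells) for differences between probe sets, from 824, 153, 89, 10432, 32, 4006 and 202. Of the calls in the 10 genes, 0 of 10, 0 of 5, 0 of 1, 9 of 18, 3 of 6 and 0 of 1 remained with that block. Fitting only the arrays compared gave 109 and 2 calls for tamoxifen in SRC1-siRNA and control-siRNA cells, and array weights 371 and 232. Median centring gave 35 in control-siRNA cells. Without probe sets under the median signal the counts were 246 (tamoxifen in SRC1-siRNA cells), 23 (interaction), 1924 and 81 (differences between probe sets). Leaving out 1 array gave 3 to 879 for tamoxifen in SRC1-siRNA cells, 7 to 346 for the interaction, 1 to 68 in control-siRNA cells, 8657 to 10347 for SRC1 siRNA, 23 to 33 related genes, and 3061 to 4087 and 93 to 224 for differences between probe sets. Where this left 1 SRC1-siRNA tamoxifen array, its spread was taken from the remaining groups. The following were chosen after seeing the data. Without all arrays numbered 2 the counts were 119, 0, 0, 6340, 18, 2156 and 74 in the order above. Without those numbered 4, tamoxifen in SRC1-siRNA cells had 159, the interaction 0, tamoxifen in control-siRNA cells 24 and its difference between probe sets 81. Only arrays 1 and 3 gave 0, 0, 1, 4076, 12, 1552 and 7. All 4 NCOA1 probe sets passed under each setting run.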
